A study of Homo sapiens with 54 samples.

Results

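The cytosolic ribosomal protein genes are the genes for the protein parts of the ribosome outside mitochondria. They were taken here by name, as the symbols of the form RPL or RPS with a number (with A, X or L at the end where present) and RPLP0, RPLP1 and RPLP2, with a mean of at least 1 CPM (the counts of a gene scaled to the same total in each library) over all 54 libraries. Of 80 symbols in the table of 27978 genes that have such names, 77 met this minimum, 31 for proteins of the small (40S) subunit and 46 for proteins of the large (60S) subunit, and are called the members. RPL21, RPL10L and RPL3L did not, with means of 0.0475, 0.00500 and 0.0889 CPM. All 77 members had enough counts to be tested at each time point and in each batch.

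RNA was from MDA-MB-231 cells, a long-established human breast cancer line with basal and mesenchymal features. Cells were left untreated, or received Compound Kushen Injection (CKI), an extract of the roots of Sophora flavescens and Heterosmilax chinensis, at 2 mg/ml or mixtures of its components at the equivalent dose, for 24 or 48 h. Each of 18 groups had 3 replicates, and the labels name 2 batches. Batch 1 held untreated cells, CKI and 4 mixtures at both times. These were CKI without oxymatrine (Omt) and oxysophocarpine (Ospc), named N-OmtOspc, CKI without these and macrozamin (Mac), named N-MacOmtOspc, and the complements made of the removed compounds only, named OmtOspc and MacOmtOspc. Batch 2 held untreated cells, CKI and 4 mixtures, each lacking 1 compound, at 48 h only. The removed compound was macrozamin in N-Mac, N-methylcytisine in N-Nme, oxymatrine in N-Omt and trifolirhizin in N-Tri. Whether a vehicle was added to untreated cells is not given in the labels.

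A ribosome needs nearly every one of its proteins in 1 copy, and their genes are among the most strongly transcribed in a dividing cell. Their messages typically begin with a C followed by a run of pyrimidines, the 5′ terminal oligopyrimidine (TOP) element, through which the mTOR kinase and the RNA-binding protein LARP1 control their translation and stability. Several of the proteins also act outside the ribosome, among them RPL5 and RPL11, which bind MDM2 when ribosome assembly is disturbed.

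Total counts per library were between 17673537 and 26138924, and the members took 3.19% to 7.82% of them. VIM and CD44, high in mesenchymal-like breast cancer cells, had medians of 873 and 512 CPM, and ESR1 and PGR, the hormone receptor genes that the line lacks, had medians of 0.0415 and 0 CPM. GATA3, a luminal marker, was not near 0, with a median of 15.3 CPM. At 24 h, the columns of CKI replicate 1, N-MacOmtOspc replicate 2 and OmtOspc replicate 2 carry no replicate number, and these libraries stand apart. The slope of their deviation from the rest of their group on the difference between the batches at 48 h was 0.678 to 0.803 over 13334 genes, and that of the other 33 libraries of batch 1 was -0.64 to 0.26. Counts at 24 h are therefore also given without them. Most members have copies elsewhere in the genome, so that the counting of reads that fit several places bears on their level. RPL23A has 91 numbered copies in the annotation and RPL21 has 66, and RPS10, RPL17 and RPL36A overlap a read-through gene that is counted on its own. Levels are therefore compared between libraries only, as CPM scaled by the trimmed mean of M values (TMM) among the 18 libraries of a time and batch. These levels are relative within a library, so that a change in the number of cells or in total RNA per cell is not seen in them. In bulk RNA, a change in some of the cells and a change in all of them cannot be told apart.

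The first bases of the transcripts are shown because they carry the TOP element that sets most members apart from other genes. RefSeq (build GRCh38.p14) lists a start for 61 of the 77 members. Of these, 44 (72.1%) had a start at a C followed by at least 4 pyrimidines (C or T), on the strand of the gene, against 5.14% of all 27305 genes listed. The first 25 bases are given 5′ to 3′, with the run of pyrimidines at the start in capitals, for the start with the longest run where several are listed.
RPL10: CTCTTTCCCTTCggtgtggtgagta
RPL13A: CTTTTCCaagcggctgccgaagatg
RPLP0: CCTTCTCTCgccaggcgtcctcgtg
RPL41: CTCTCggccttagcgccattttttt
RPS6: CTCTTTTCCgtggcgcctcggaggc
RPL26: CTCTTCCCTTTTgcggccatcaccg
RPL39: CCCTCCTCTTCCTTTCTCCgccatc
RPS27: CCTTTCCggcggtgacgacctacgc
RPL3: CTCTaccggcgggatttgatggcgt
RPS27L: gcagatcgcttgcagcttgctagct
RPL10 starts at chrX:154398377-154398401 on the plus strand, RPL13A at chr19:49487608-49487632 on the plus strand, RPLP0 at chr12:120201087-120201111 on the minus strand, RPL41 at chr12:56116633-56116657 on the plus strand and RPS6 at chr9:19380212-19380236 on the minus strand. RPL26 starts at chr17:8383169-8383193 on the minus strand, RPL39 at chrX:119791606-119791630 on the minus strand, RPS27 at chr1:153990762-153990786 on the plus strand, RPL3 at chr22:39319599-39319623 on the minus strand and RPS27L at chr15:63157453-63157477 on the minus strand. RPL3 has 1 pyrimidine fewer than the definition asks, and RPS27L, a paralog of RPS27, begins with a purine.

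CKI was compared with untreated cells to see which genes it changed. Members were lower with CKI at each time point and in each batch, and no member was significantly higher. At 24 h 38 of 77 members were lower, against 14.8% of all genes tested, and 0 were higher, against 15.3% of all genes tested. At 48 h 67 were lower in batch 1, against 27% of all genes (27% higher), and 74 in batch 2, against 34.2% (32.3% higher). Every call and adjusted p given here comes from the quasi-likelihood test of edgeR, adjusted by the method of Benjamini and Hochberg over all genes tested, with a threshold of 0.05. The untreated libraries of these comparisons differ, and 38 members were lower in all 3, against 12.3% of the 14667 genes tested in each, and 67 in both at 48 h, against 24% of 14880.

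The median log2 fold change over the members was -0.48 at 24 h, -0.49 at 48 h in batch 1 and -0.58 in batch 2, while the median over all genes lay between -0.0073 and 0.020. Relative to the mean of their untreated cells, the 3 CKI libraries had member medians of -0.54, -0.55 and -0.33 at 24 h, of -0.39, -0.52 and -0.55 at 48 h in batch 1 and of -0.60, -0.53 and -0.60 in batch 2. The untreated libraries lay between -0.17 and 0.11, so that each CKI library was below each untreated library. Without any scaling between libraries, the members took 4.26%, 4.66% and 4.45% of the counts in untreated cells at 48 h in batch 1 and 3.45%, 3.25% and 3.19% with CKI. In batch 2 the shares were 5.11%, 5.13% and 5.05% in untreated cells and 3.46%, 3.61% and 3.48% with CKI. Small-subunit and large-subunit members had medians of -0.58 and -0.59 in batch 2, and 29 of 31 and 45 of 46 were lower. The number at 24 h was between 15 and 23 without untreated replicate 1 (15) or 2 (21) or CKI replicate 1 (23) or 2 (16), and 27 without the 3 libraries named above. It was 62 with the 6 libraries compared alone and 65 with 1 fit over all 54, and no member was higher in either.

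**Figure D1:**
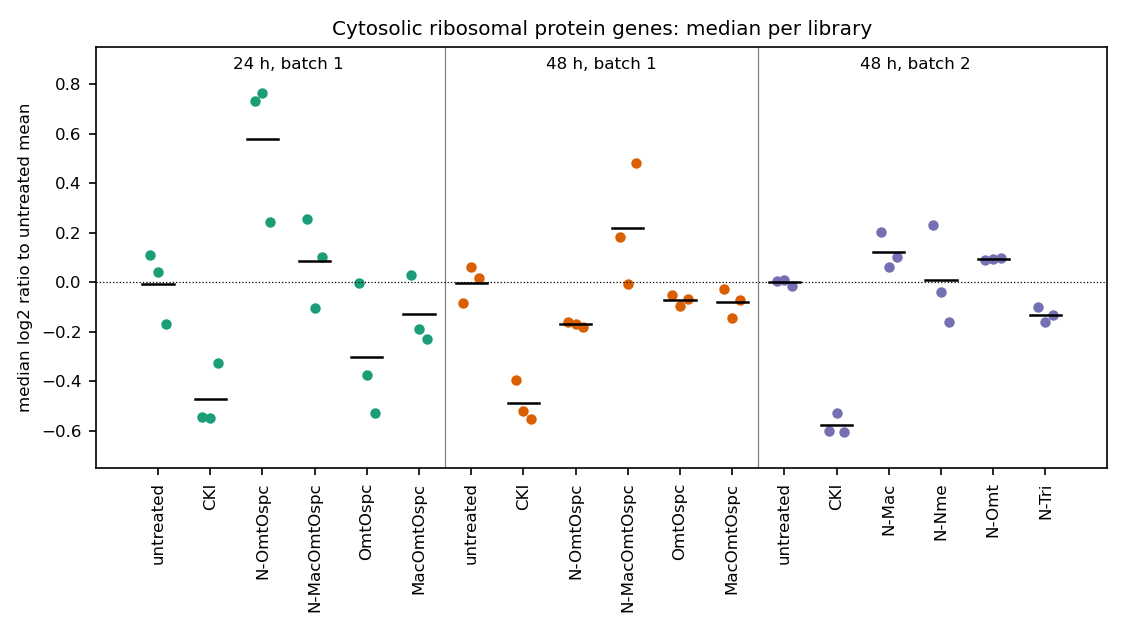
Median over the 77 members of the log2 ratio of CPM to the mean of the untreated libraries of the same time and batch (vertical axis, log2 scale), one point per library and a bar at the mean of 3, by group. The CKI libraries lie between -0.60 and -0.33 in every block, below their untreated libraries.

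RPL10, which joins the 60S subunit last and completes the peptidyl transferase centre, fell most at 48 h. It was at 922, 1029 and 1018 CPM in untreated cells of batch 1 and at 428, 372 and 372 CPM with CKI. In batch 2 it was at 1267, 1239.6 and 1318 CPM without and 431, 453 and 423 CPM with CKI. The groups were far apart in both batches, and no library lay between them. Its log2 fold change was -1.34 ± 0.076 (adjusted p = 2.96e-12) in batch 1 and -1.55 ± 0.078 (adjusted p = 2.18e-17) in batch 2 (standard error), and -1.15 ± 0.15 (adjusted p = 4.72e-05) at 24 h.

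RPL13A, a 60S protein that also silences translation of inflammatory messages once released, fell most at 24 h. It was at 118, 119 and 95.2 CPM in untreated cells and 33.8, 43.4 and 56.8 CPM with CKI, a log2 fold change of -1.31 ± 0.19 (adjusted p = 7.97e-05). The values do not overlap, and the CKI library closest to untreated cells was replicate 3. The changes at 48 h were -0.99 ± 0.097 (adjusted p = 1.68e-08) in batch 1 and -1.23 ± 0.076 (adjusted p = 4.16e-15) in batch 2 on the log2 scale.

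RPL3, a 60S protein next to the peptidyl transferase centre, was at 1235, 1209 and 1229.8 CPM in untreated cells of batch 2 and at 506, 524 and 497 CPM with CKI. Its log2 fold change was -1.27 ± 0.067 (adjusted p = 6.71e-17), and it was -1.16 ± 0.080 (adjusted p = 6.63e-11) in batch 1 and -0.97 ± 0.14 (adjusted p = 0.000121) at 24 h. RPL41, the smallest ribosomal protein, had log2 fold changes of -0.69 (adjusted p = 0.00409) at 24 h and of -0.81 (adjusted p = 9.05e-06) and -0.88 (adjusted p = 1.51e-10) at 48 h in batch 1 and 2. RPS26, which lines the exit of the mRNA channel, fell less, with log2 fold changes of -0.44, -0.39 and -0.57 (adjusted p = 0.0126, 0.0467 and 3.17e-07). The call for RPS26 in batch 1 at 48 h was lost without any 1 of the 6 libraries compared, and that at 24 h without untreated replicate 1 or CKI replicate 2. RPL10, RPL39L, RPL3, RPL41 and RPS26 had the 5 lowest mean log2 fold changes over the 15 comparisons with untreated cells, many of which share untreated libraries.

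The genes for the 3 proteins of the stalk, which recruits elongation factors, fell in batch 2 by amounts that were not tested against each other. RPLP0, the base of the stalk, was at 2253, 2266 and 2265 CPM without and 1260.5, 1292 and 1246 CPM with CKI in batch 2, with a log2 fold change of -0.84 ± 0.073 (adjusted p = 1.29e-11). The log2 fold changes of RPLP1 and RPLP2, the acidic proteins of the stalk, were -0.33 ± 0.069 (adjusted p = 0.000102) and -0.29 ± 0.063 (adjusted p = 0.00014) there. In batch 1 at 48 h RPLP0 changed by -0.69 (adjusted p = 2.1e-07) and RPLP1 by -0.21 (adjusted p = 0.0365), while RPLP2 was at -0.17 (adjusted p = 0.17) and not called. The call for RPLP1 there was lost without replicate 2 or 3 of either group, and that for RPLP2 in batch 2 with all 54 libraries in 1 fit. At 24 h only RPLP0 of the 3 was called, at -0.60 (adjusted p = 0.0356), and it was not called without the 3 libraries that stand apart or without untreated or CKI replicate 1 or 2.

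RPL5 and RPL11, which form a particle with 5S rRNA, were both lower at 48 h, with log2 fold changes of -0.61 and -0.53 in batch 1 and of -0.71 and -0.51 in batch 2 (largest adjusted p = 1.85e-05). RPS6, the substrate of the S6 kinases, changed by -0.56 ± 0.15 (adjusted p = 0.0122) at 24 h, -0.57 ± 0.10 (adjusted p = 5.66e-05) at 48 h in batch 1 and -0.73 ± 0.059 (adjusted p = 2.39e-12) in batch 2, and the call at 24 h was lost without untreated replicate 1. RPS3, at the entry of the mRNA channel, changed by -0.43 (adjusted p = 3.88e-05) and -0.60 (adjusted p = 7.61e-10) at 48 h. RPS27A, made as a fusion with ubiquitin, changed by -0.44 (adjusted p = 0.00256) and -0.50 (adjusted p = 3.76e-09).

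Only RPS10, RPL17 and RPS27L were lower with CKI in none of the 3 comparisons. RPS27L was at 70.4, 75.2 and 65.7 CPM in untreated cells of batch 2 and 60.4, 68.3 and 67.2 CPM with CKI, ranges that overlap, and its log2 fold change was -0.11 ± 0.061 (adjusted p = 0.121). Its paralog RPS27 was at 744, 729 and 688 CPM without and 379.6, 402 and 382 CPM with CKI, with no overlap and a log2 fold change of -0.89 ± 0.062 (adjusted p = 5.46e-14). RPL39 and RPL39L, paralogs in the exit tunnel of which RPL39L is known from the testis, both fell at 48 h. RPL39 changed by -0.57 (adjusted p = 5.91e-05) in batch 1 and -0.54 (adjusted p = 3.37e-10) in batch 2, and RPL39L by -0.43 (adjusted p = 0.000198) and -0.64 (adjusted p = 3.07e-08). RPS10, a 40S protein at the mRNA entry, had under 6 CPM in each of these libraries and RPL17, at the end of the exit tunnel, under 14, so that these low counts on overlapped genes are uncertain.

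Beyond the members, the other 8 cytosolic ribosomal protein genes whose names fall outside the rule moved the same way, with 6 lower at 48 h in batch 1 and 7 in batch 2 and none higher (medians of -0.41 and -0.45), against 27% and 34.2% of all genes lower. RPL22L1, a paralog of RPL22, changed by -2.04 (adjusted p = 4.84e-09) in batch 1 and -1.92 (adjusted p = 7.7e-21) in batch 2. RPSA, also a laminin receptor, changed by -0.95 (adjusted p = 1.35e-09) and -0.96 (adjusted p = 7.51e-14), RACK1, a scaffold on the 40S head, by -0.57 (adjusted p = 3.8e-07) and -0.79 (adjusted p = 7.21e-12), and FAU, the precursor of eS30, by -0.43 (adjusted p = 0.0001) and -0.53 (adjusted p = 2.96e-08). Of 17 translation factors and other genes known for a TOP element, 9 were lower at 24 h, 15 at 48 h in batch 1 and 16 in batch 2, against 14.8%, 27% and 34.2% of all genes, and none was higher. HNRNPA1, a splicing regulator, changed by -0.98 (adjusted p = 2.28e-08) and -1.28 (adjusted p = 3.76e-16) at 48 h, and EEF1B2, a subunit of elongation factor 1, by -0.80 (adjusted p = 1.36e-07) and -0.93 (adjusted p = 1.39e-16). NAP1L1, a histone chaperone, changed by -0.51 (adjusted p = 1.64e-06) and -0.66 (adjusted p = 3.68e-13), and BTF3, of the nascent polypeptide complex, by -0.54 (adjusted p = 2.39e-06) and -0.71 (adjusted p = 4.32e-13).

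Genes that regulate TOP messages had calls in either direction, as all genes did. Of 12, 1 was higher and 3 were lower at 48 h in batch 1, where 27% of all genes were higher and 27% lower, and 4 were higher and 5 lower in batch 2, where 32.3% and 34.2% of all genes were. LARP1, which binds the TOP element, changed by -0.57 (adjusted p = 3.96e-06) and -0.56 (adjusted p = 5.03e-11), and its relative LARP4 by -0.52 (adjusted p = 1.26e-06) and -0.45 (adjusted p = 1.91e-08). TSC1, an inhibitor of mTOR signalling, changed by 0.23 (adjusted p = 0.0226) and 0.30 (adjusted p = 4.49e-06). EIF4EBP2, a translation repressor that mTOR inactivates, changed by -0.18 (adjusted p = 0.0248) in batch 1 and 0.34 (adjusted p = 2.96e-07) in batch 2. Of 11 ribosomal protein chaperones and assembly factors, 4 were lower and 2 higher in batch 1, and 5 and 2 in batch 2, with 27% and 27% of all genes lower and higher in batch 1 and 34.2% and 32.3% in batch 2. Of these EIF6, which keeps new 60S subunits apart from 40S, changed by -0.74 (adjusted p = 2.11e-07) and -0.92 (adjusted p = 3.55e-13), LTV1, which acts on 40S subunits, by -0.70 (adjusted p = 8.76e-08) and -1.05 (adjusted p = 1.63e-13), GRWD1, the chaperone of RPL3, by -0.67 (adjusted p = 1.78e-05) and -0.71 (adjusted p = 1.36e-12), and NOB1, a nuclease of 18S rRNA maturation, by -0.47 (adjusted p = 6.35e-05) and -0.54 (adjusted p = 6.03e-08). Mitochondrial ribosomal protein genes, whose products form a separate ribosome, were called lower far more often than higher. Of 78, 50 were lower and 5 higher in batch 1, and 50 and 8 in batch 2, with medians of -0.28 and -0.23, and the same shares of all genes apply.

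Members with and without a listed start at a TOP had like medians with CKI. The split rests on the exact base listed, and RPL3, 1 pyrimidine short, is among those without. A member without a listed TOP start may therefore still have the element, and starts in these cells were not measured. In batch 2 the 44 members with one had a median log2 fold change of -0.59 and the 17 with listed starts but none at a TOP had -0.57. For 759 other genes with a TOP start the median was -0.086, with 41.1% of them lower and 28.2% higher. These were taken by sequence alone, and the 17 genes known for a TOP element had a median of -0.48 there. In batch 1 at 48 h the 3 medians were -0.48, -0.44 and -0.086.

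The CKI effect was tested for a difference between batches and between times. At 48 h 6 members, RPL36, RPL18, RPL8, RPL19, RPL14 and RPL23A, had a lower log2 fold change in batch 2 than in batch 1 (the last 4 named after their values were seen), against 7.2% of all genes, and none a higher one, against 6.58%. The difference was largest for RPL36, a small 60S protein, at -0.33 ± 0.071 (adjusted p = 0.00381), and the median over the members was -0.10. The number was 3 without CKI replicate 1 or 3 of batch 2 and 0 with 1 fit over all 54 libraries, and the median was -0.046 without untreated replicate 1 of batch 1. Between 48 and 24 h 0 members differed, against 0.177% of all genes higher and 0.214% lower. Of the members 1 had an unadjusted p under 0.05 and DESeq2's Wald test called 0, and the median difference was -0.010.

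**Figure D2:**
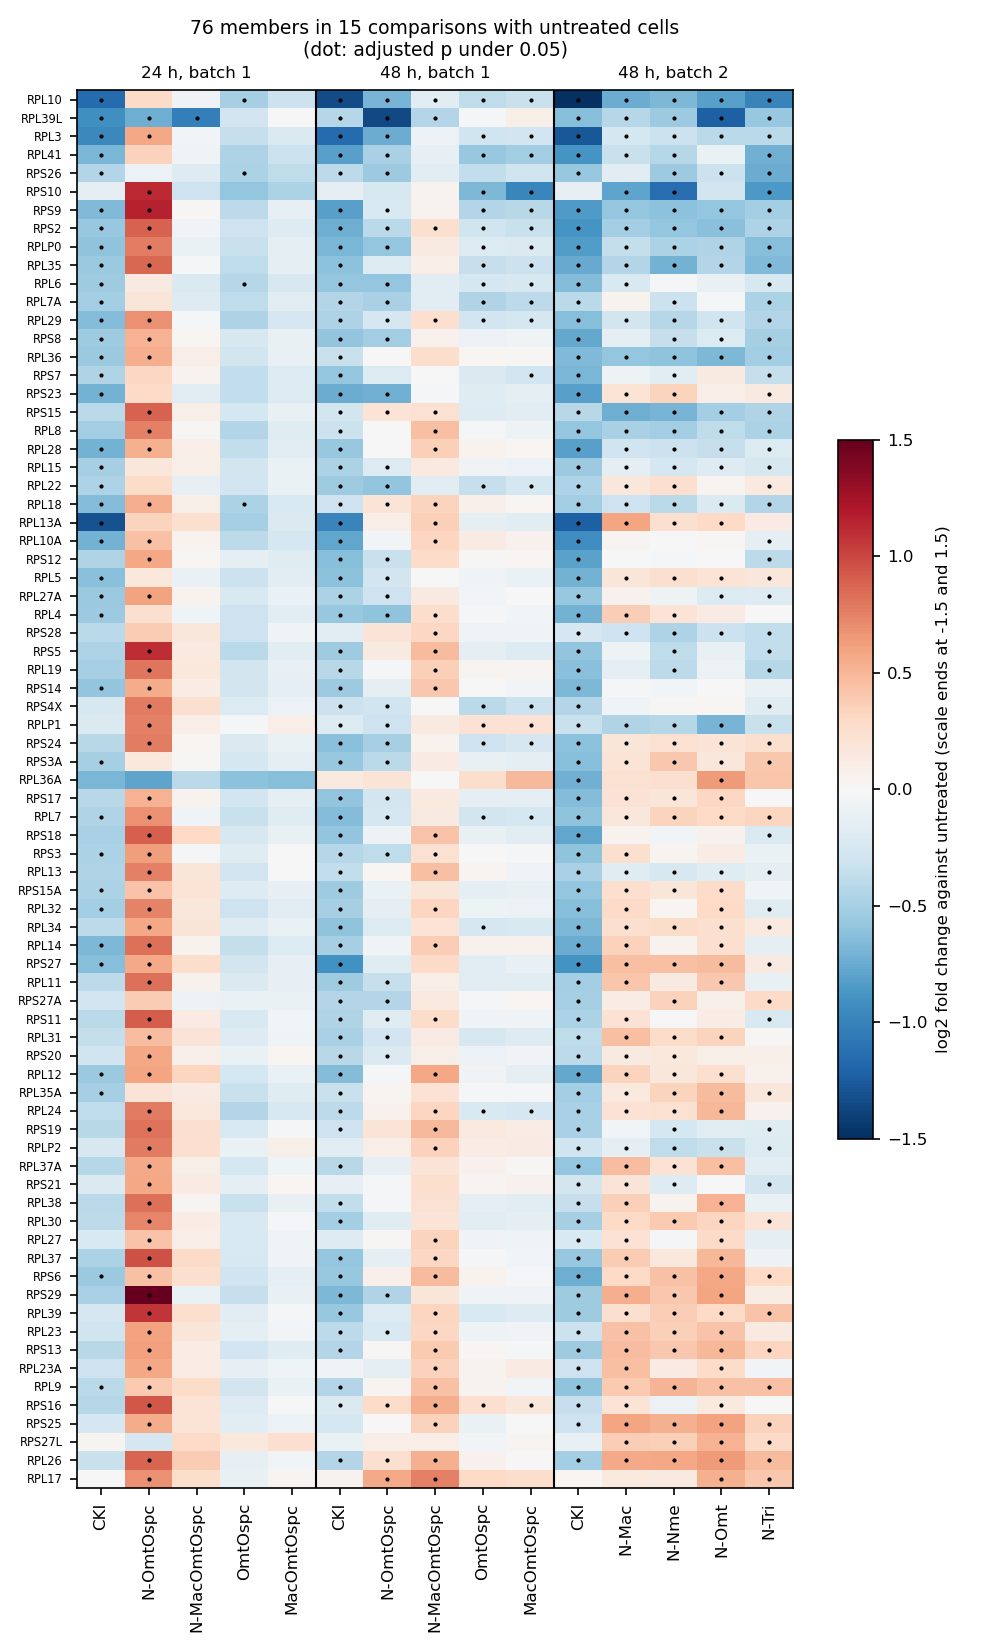
Log2 fold change (colour, log2 scale, cut at -1.5 and 1.5) of 76 of the 77 members (rows, ordered by their mean over the columns) against untreated cells in 15 comparisons (columns), with a dot where the adjusted p was under 0.05. CKI columns are blue in nearly every row, N-OmtOspc at 24 h is mostly red, and the 4 single-removal mixtures of batch 2 are red in some rows and blue in others.

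Mixtures were compared with untreated cells to see what remained of the CKI profile when compounds were removed or were given alone. N-OmtOspc raised the members at 24 h. There 58 were higher and 1 lower, against 31.1% and 30.9% of all genes, with a median log2 fold change of 0.58. The 3 libraries had member medians of 0.73, 0.77 and 0.24, and replicate 3 was the lowest of them for most of the genes named here. Without the 3 libraries that stand apart 61 were higher and 2 lower. RPS29, a zinc-binding 40S protein, rose most, from 267, 198 and 179 CPM to 779, 902 and 298 CPM. Replicate 3 lay close to the highest untreated library and the other two far above, and the log2 fold change was 1.62 ± 0.32 (adjusted p = 0.000354). RPL39L went the other way, from 35.8, 31.2 and 26.3 CPM to 20.5, 24.5 and 11.4 CPM, a log2 fold change of -0.73 ± 0.24 (adjusted p = 0.015) that was not called without untreated replicate 1 or N-OmtOspc replicate 3. Without scaling between libraries 32 were higher and 4 lower, with a median over the members of 0.26 and over all genes of -0.31.

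At 48 h N-OmtOspc gave 6 higher and 33 lower members, against 38.3% and 38.3% of all genes, so that the share of lower members was near that of all genes and the share of higher ones below it. The median was -0.18, and the library medians were -0.16, -0.17 and -0.18. RPL39L fell most, from 25.8, 27.6 and 25.8 CPM to 9.58, 11.2 and 10.2 CPM, a log2 fold change of -1.35 ± 0.091 (adjusted p = 6.6e-12), while its paralog RPL39 was at -0.20 ± 0.10 (adjusted p = 0.0732). RPL10 changed by -0.69 (adjusted p = 1.9e-08) and RPL3 by -0.74 (adjusted p = 1.68e-08). RPL17 rose most, by 0.57 (adjusted p = 0.000481), but it is an overlapped gene of low counts, with means of 11.1 CPM without and 16.6 CPM with the mixture. RPS16, at the decoding face of the 40S subunit, rose by 0.28 (adjusted p = 0.00156). With a trend with transcript length removed from each library, RPS16 was not called, 1 member was higher and 59 were lower. With library sizes alone 8 were higher and 23 lower.

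The test of the difference between times called 61 members for N-OmtOspc, all with a lower log2 fold change at 48 h than at 24 h, against 18.7% of all genes, and 0 the other way, against 15.5%. The median difference was -0.73. RPS29 differed most, by -2.04 ± 0.37 (adjusted p = 9.04e-05), and RPLP0 differed by -1.33 (adjusted p = 3.97e-05) and RPL3 by -1.29 (adjusted p = 8.31e-07). With library sizes alone 31 members were lower and 2 higher, with medians of -0.37 over the members and 0.35 over all genes.

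With N-MacOmtOspc few members were called at 24 h and more at 48 h, though the test of the difference between times called none. At 24 h 0 were higher and 1 lower, against 23.2% and 21.8% of all genes, and the lower one was RPL39L at -1.02 ± 0.24 (adjusted p = 0.00273). Without the 3 libraries that stand apart 4 were higher and 1 lower, and without N-MacOmtOspc replicate 2 alone 3 were called. At 48 h 36 were higher and 2 lower, against 35.8% and 35.3%, with a median of 0.23. The library medians were 0.18, -0.0083 and 0.48, a spread wider than the median itself, and without replicate 2 the number called was 59 of 77. Without replicate 3 the median was 0.085 and 33 were called, and with a length trend removed the median was 0.091, with 30 higher and 6 lower. RPL17, again at low counts with a mean of 18.7 CPM, rose most, by 0.76 ± 0.13 (adjusted p = 2.38e-05). RPS16 and RPL26 rose by 0.54 (adjusted p = 7.43e-07) and 0.53 (adjusted p = 2.03e-05). The 2 lower members were RPL39L at -0.44 (adjusted p = 0.000104) and RPL10 at -0.17 (adjusted p = 0.0429), the latter not called without untreated replicate 2 or 3 or N-MacOmtOspc replicate 1 or 2. No member differed between the times, against 2.35% of all genes higher and 5% lower, though 3 had an unadjusted p under 0.05, and DESeq2 called 0.

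OmtOspc and MacOmtOspc, made of the removed compounds only, gave fewer called members than CKI did at the same time in batch 1. At 24 h OmtOspc lowered 4 members and raised 0, against 7.72% and 9.03% of all genes, with a median of -0.28 and library medians of -0.0017, -0.37 and -0.53. The lower members were RPL10, RPL18, RPS26 and RPL6 (the last named after its value was seen), with RPL10 at -0.50 ± 0.15 (adjusted p = 0.0326). None was called without untreated replicate 1 or 2 or without OmtOspc replicate 3, 1 without OmtOspc replicate 2, and 25 without OmtOspc replicate 1, where the median was -0.44, while it was -0.17 without replicate 3. Without the 3 libraries that stand apart 4 were lower and 0 higher. With OmtOspc 76 of the 77 members had a log2 fold change below 0, 21 had an unadjusted p under 0.05, and DESeq2 called 8. MacOmtOspc changed 0 members at 24 h, against 5.61% of all genes higher and 4.84% lower, with 1 member at an unadjusted p under 0.05, 1 called by DESeq2, 1 lower without the 3 libraries that stand apart and a median of -0.11, which was -0.20 without its replicate 1 and -0.052 without untreated replicate 1.

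At 48 h OmtOspc raised 2 members and lowered 17, against 29.1% and 28.7% of all genes, and MacOmtOspc raised 2 and lowered 17, against 25.7% and 25.5%. The medians were -0.058 and -0.070. In both, the lower members were a smaller share than among all genes. The 2 higher members were RPS16, by 0.25 (adjusted p = 0.00591) and 0.17 (adjusted p = 0.0493), and RPLP1, by 0.22 (adjusted p = 0.0236) and 0.22 (adjusted p = 0.0309), and neither was called in either mixture without untreated replicate 1. RPS10 fell most but had under 5 CPM in these libraries, with -0.67 (adjusted p = 0.00284) and -0.98 (adjusted p = 0.000129). RPL41 changed by -0.57 (adjusted p = 0.000392) and -0.52 (adjusted p = 0.00114) and RPL10 by -0.39 (adjusted p = 0.000125) and -0.34 (adjusted p = 0.000617). With library sizes alone the medians were 0.049 and 0.017, while all genes had 0.13 and 0.099, and the members called were 7 higher and 11 lower for OmtOspc and 3 and 11 for MacOmtOspc. Between times OmtOspc differed for 1 member, RPL18, by 0.58 ± 0.17 (adjusted p = 0.0325), against 3.23% of all genes higher and 4.83% lower. No member was called without any 1 of 9 libraries (untreated replicate 1 or 2 or OmtOspc replicate 2 or 3 at 24 h, any untreated library or OmtOspc replicate 2 or 3 at 48 h), and 6 without OmtOspc replicate 1 at 24 h. MacOmtOspc differed for 0, against 1.02% and 1.57%, with 1 at an unadjusted p under 0.05 and 0 called by DESeq2.

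**Figure D3:**
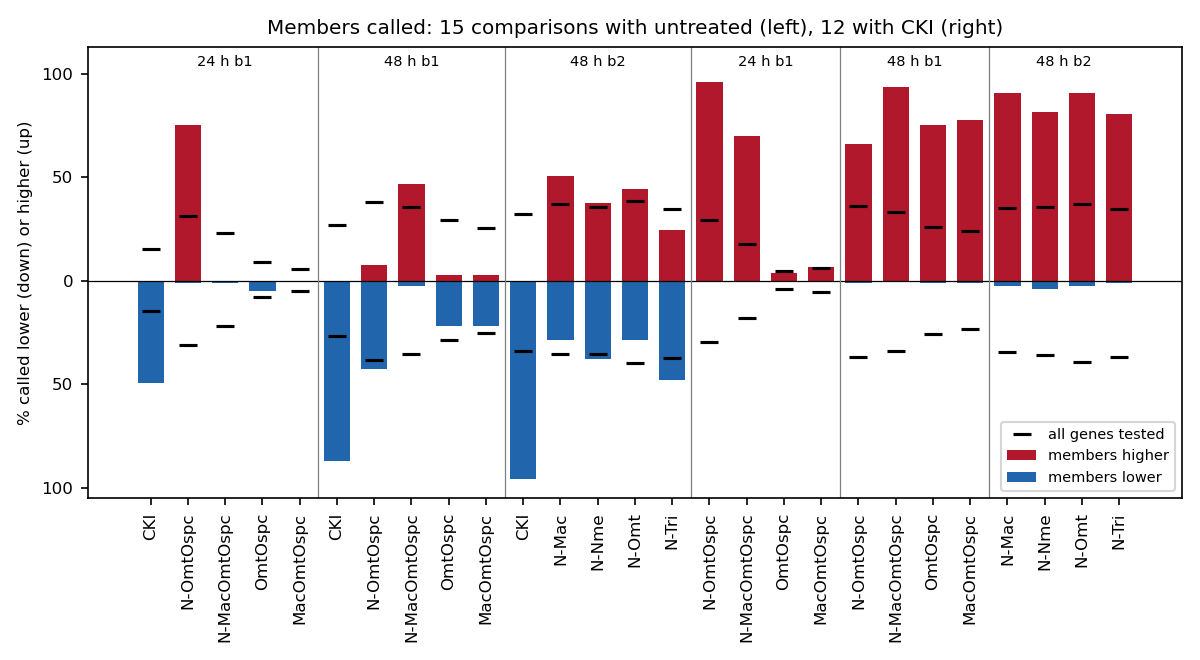
Percentage of the 77 members called higher (bars up) or lower (bars down) at an adjusted p under 0.05 in the 15 comparisons with untreated cells (left) and the 12 with CKI (right), with b1 and b2 for batch 1 and 2 and black marks for the percentage of all genes tested. With CKI 49.4%, 87% and 96.1% of the members were lower than in untreated cells, and in batch 2 between 80.5% and 90.9% were higher in a mixture than with CKI.

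Mixtures that lacked a single compound moved members both ways in batch 2. N-Mac raised 39 and lowered 22, against 36.9% and 35.4% of all genes. N-Nme raised 29 and lowered 29, against 35.9% and 35.4%. N-Omt raised 34 and lowered 22, against 38.4% and 39.9%. N-Tri raised 19 and lowered 37, against 34.8% and 37.4%, and with library sizes alone these were 25 and 27. The medians were 0.15, 0.023, 0.096 and -0.13, and the shares called in each direction were within 15 percentage points of those of all genes. The library medians were 0.20, 0.060 and 0.10 for N-Mac and 0.23, -0.040 and -0.16 for N-Nme. Without replicate 1 of its own mixture the median was 0.080 for N-Mac and turned to -0.088 for N-Nme.

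RPL26, at the exit tunnel of the 60S subunit, rose in all 4 mixtures. It was at 549, 548 and 539 CPM in untreated cells and at 377, 395 and 377 CPM with CKI. It was at 847, 743 and 844 CPM with N-Mac, 861, 819.7 and 774 with N-Nme, 825, 869 and 864 with N-Omt and 797, 752 and 725 with N-Tri. Every mixture library lay above every untreated library and every CKI library below, and the log2 fold changes of the mixtures against untreated cells were 0.57 ± 0.054, 0.58 ± 0.054, 0.64 ± 0.054 and 0.47 ± 0.054 (largest adjusted p = 2.25e-09). RPL10 stayed below untreated cells in all 4, at 823, 756 and 706 CPM with N-Mac, 962, 745 and 690.1 with N-Nme, 781, 722 and 676 with N-Omt and 646, 636 and 635 with N-Tri, all of them above the CKI libraries. Its log2 fold changes were -0.74 ± 0.076, -0.67 ± 0.076, -0.81 ± 0.076 and -1.0 ± 0.077 (largest adjusted p = 2.3e-09).

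RPS25, a 40S protein needed for some internal ribosome entry sites, changed by 0.59, 0.53, 0.60 and 0.34 with N-Mac, N-Nme, N-Omt and N-Tri (largest adjusted p = 6.8e-06). RPS6 changed by 0.30, 0.44, 0.58 and 0.30 in the same order (largest adjusted p = 2.97e-05), and RPS27L by 0.37, 0.35, 0.52 and 0.28 (largest adjusted p = 9.98e-05). RPL13A rose with N-Mac to 172, 157 and 154 CPM from 101, 108 and 110.3 CPM, the largest rise there, at 0.59 ± 0.071 (adjusted p = 7.2e-09). All 3 stalk genes were lower in the 4 mixtures, with log2 fold changes for RPLP0 of -0.36, -0.47, -0.45 and -0.63, for RPLP1 of -0.45, -0.43, -0.70 and -0.34, and for RPLP2 of -0.15, -0.38, -0.34 and -0.20 (largest adjusted p = 0.0348, RPLP2 with N-Mac). With a trend with GC content removed, RPLP2 was at 0.26 with N-Mac, 0.040 with N-Nme and 0.082 with N-Tri, the opposite direction, and it was not called with N-Omt. The call with N-Mac was lost without untreated replicate 3 or N-Mac replicate 2 or 3. RPL39L fell most with N-Omt, to 9.83, 10.2 and 10.6 CPM from 23.5, 26.3 and 21.9 CPM, at -1.23 ± 0.086 (adjusted p = 2.5e-14). RPS10, at or below 3.14 CPM in every library of batch 2, had the largest fall with N-Mac, -0.79 (adjusted p = 0.000583), and N-Nme, -1.15 (adjusted p = 8.23e-06).

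**Figure D4:**
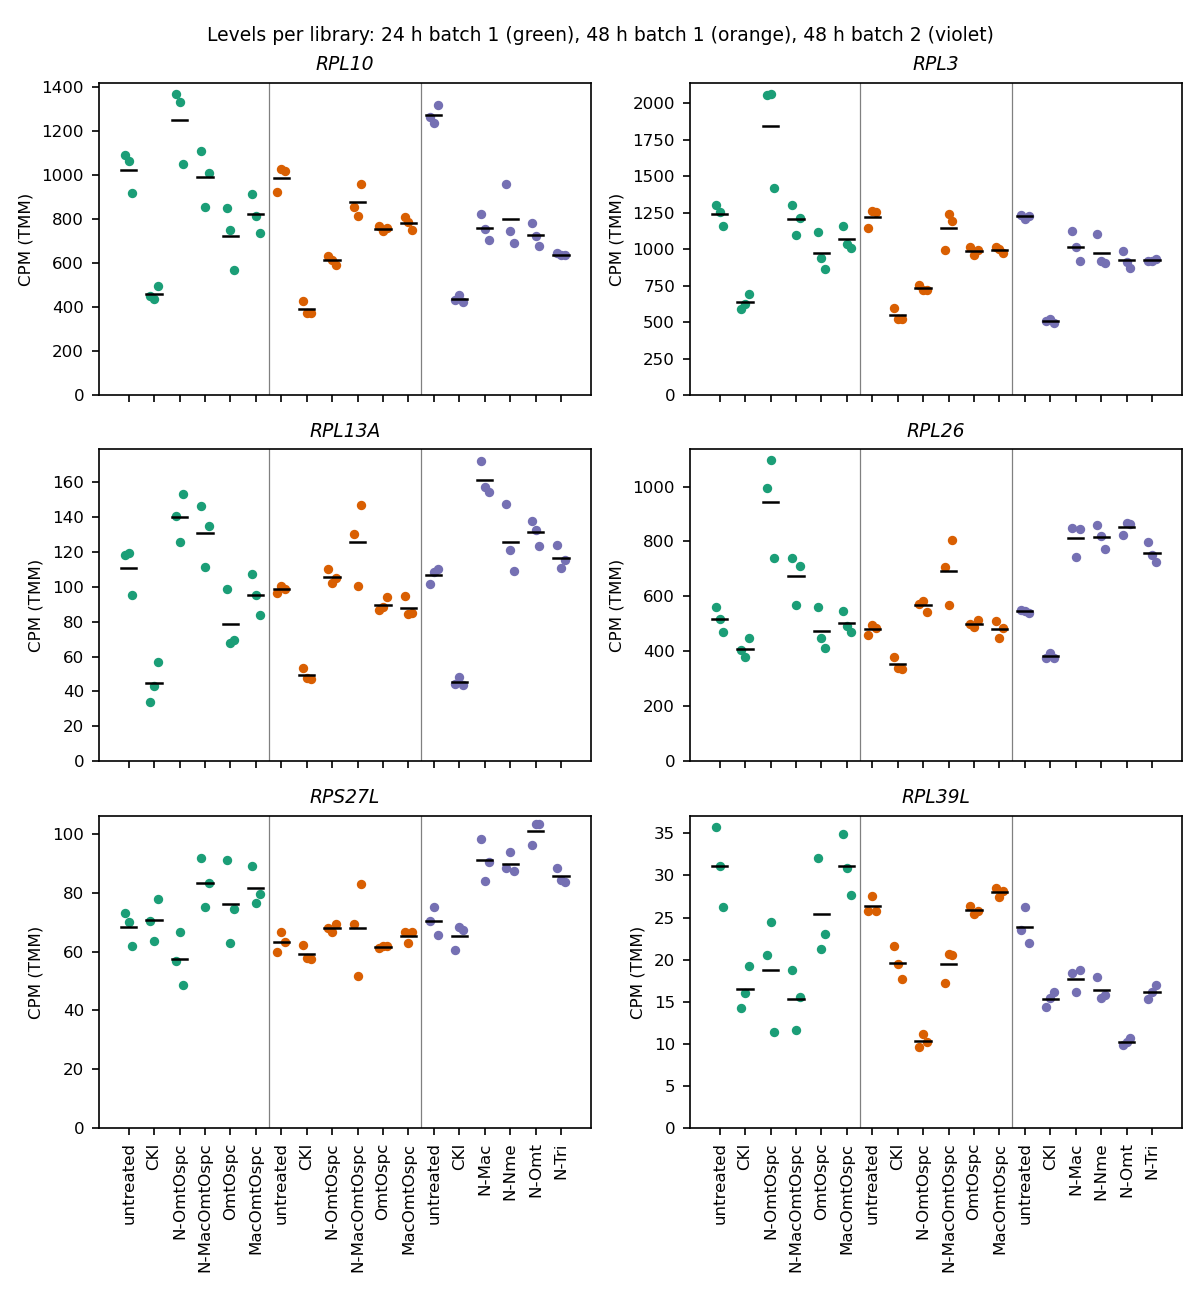
Level in CPM after TMM scaling (vertical axes from 0) of RPL10, RPL3, RPL13A, RPL26, RPS27L and RPL39L in each of the 54 libraries, with a bar at the mean of 3 and colours for time and batch. RPL10, RPL3 and RPL13A are low with CKI in all 3 blocks, RPL26 is above untreated cells in the single-removal mixtures, and RPL39L is lowest with N-OmtOspc at 48 h and with N-Omt.

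In the single-removal mixtures the direction of a member went with the GC content of its transcript. Across the 77 members the Pearson correlation of the log2 fold change with the GC percentage was -0.63 for N-Mac, -0.73 for N-Nme, -0.65 for N-Omt and -0.62 for N-Tri, as a description over genes of shared libraries. Across all genes with a GC value it was -0.22, -0.28, -0.061 and -0.22. For the members it was -0.18 with CKI in batch 2, and between -0.28 and 0.31 in the 10 comparisons of batch 1. The members were then divided, after seeing these values, at their median of 49.9% GC. Of the 38 with less GC, 24 were higher and 4 lower with N-Nme, and of the 39 others 5 were higher and 25 lower. With N-Tri these numbers were 18 and 7 for less GC and 1 and 30 for more. They were less one-sided for more GC with N-Mac, at 28 and 3 for less GC and 11 and 19 for more. With N-Omt they were 26 and 3 for less GC and 8 and 19 for more. With CKI in batch 2 36 of 38 and 38 of 39 were lower. With a trend with GC content removed from each library, the correlation over the members was -0.24, -0.29, -0.49 and -0.20 for N-Mac, N-Nme, N-Omt and N-Tri. It was then -0.35 for CKI in batch 2, stronger than for N-Mac, N-Nme and N-Tri, and between -0.30 and 0.33 in batch 1. After this removal the mixtures thus no longer stood apart from CKI by their correlation. The members called higher and lower in the 4 mixtures were then 28 and 22, 24 and 23, 35 and 19, and 20 and 29. With CKI 74 were lower as before. The part of GC content in these calls was not tested further. GC content is that of 1 annotated transcript per gene, which is long for some members. It has 7686 bases for RPL37 and 6434 for RPS27L, against a median of 709 over the members. Whether these are the transcripts present in the cells was not tested.

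**Figure D5:**
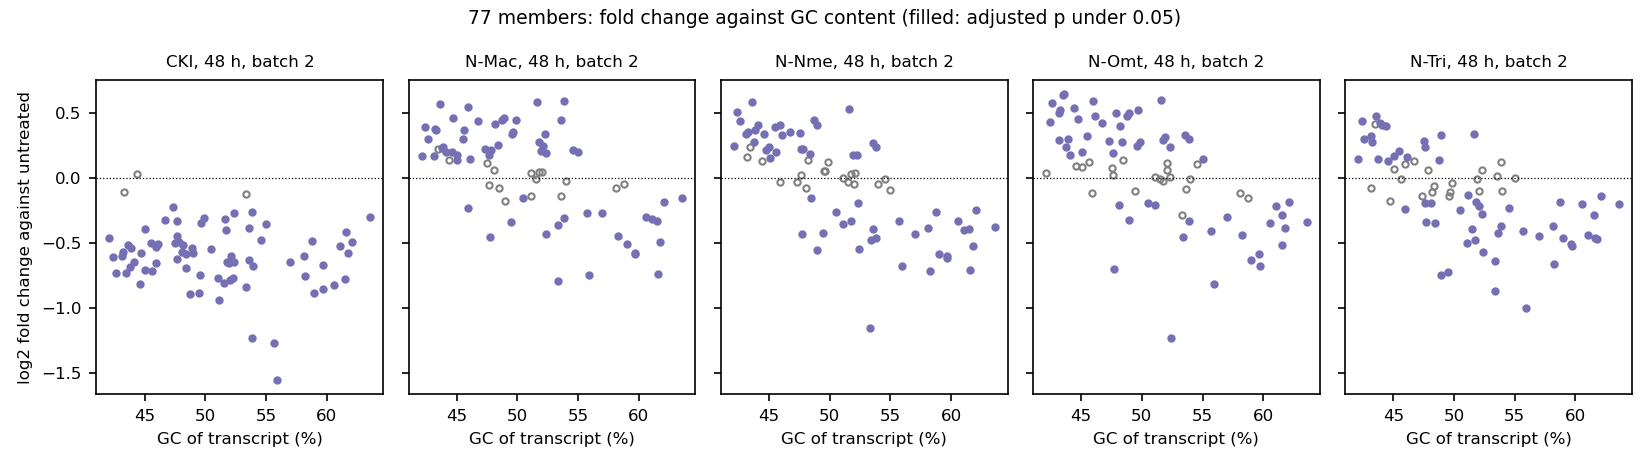
Log2 fold change against untreated cells (vertical axis, log2 scale) of the 77 members against the GC percentage of their transcript (horizontal axis) with CKI and the 4 single-removal mixtures at 48 h in batch 2, filled where the adjusted p was under 0.05. Points fall from left to right in the mixtures, with correlations between -0.73 and -0.62, while 76 of 77 lie below 0 with CKI.

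Each mixture was also compared with CKI itself. This tests what the removal changed for the mixtures that lack compounds, but not for OmtOspc and MacOmtOspc, which are the removed compounds alone. Nearly all members called were higher in the mixture than with CKI. At 24 h 74 members were higher with N-OmtOspc, against 29.2% of all genes, and 54 with N-MacOmtOspc, against 17.6%. None was lower, against 29.5% and 18.1% of all genes. OmtOspc gave 3 higher members, against 4.47%, and MacOmtOspc 5, against 6.02%, shares near those of all genes, with none lower against 4.02% and 5.57%. The medians were 1.11, 0.53, 0.19 and 0.36. For N-MacOmtOspc the number was 35 without CKI replicate 1, 30 without CKI replicate 2, 26 and 33 without its own replicates 1 and 3, 28 with a length trend removed, and 52 without the 3 libraries that stand apart. For MacOmtOspc it was 25 with the 6 libraries compared alone, 47 with all 54, and 3 without either CKI replicate 1 or 2 or its own replicate 1 or 2. For OmtOspc it was 0 without CKI replicate 2, and the median was 0.025 without OmtOspc replicate 1. Without the 3 libraries that stand apart 73 members were higher with N-OmtOspc, 3 with OmtOspc and 5 with MacOmtOspc, and none was lower.

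At 48 h in batch 1 51 members were higher with N-OmtOspc than with CKI and 1 was lower, against 36% and 37.1% of all genes. With N-MacOmtOspc 72 were higher and 0 lower, against 33.1% and 34.1%. With OmtOspc 58 were higher and 1 lower, against 25.9% and 25.8%, and with MacOmtOspc 60 and 1, against 24% and 23.6%. The medians were 0.33, 0.71, 0.39 and 0.39. In batch 2 70 were higher and 2 lower with N-Mac, against 35.1% and 34.3%, and 63 and 3 with N-Nme, against 35.8% and 35.7%. With N-Omt the numbers were 70 and 2, against 37.1% and 39.2%, and with N-Tri 62 and 1, against 34.5% and 36.9%. Medians in batch 2 were 0.65, 0.64, 0.71 and 0.42. Mixtures of a block share their CKI libraries, so these counts are not independent.

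RPL13A had the largest difference from CKI in 9 of the 12 comparisons. At 48 h in batch 2 it was at 44.4, 48.3 and 43.7 CPM with CKI and at 172, 157 and 154 CPM with N-Mac, 147, 121 and 109 with N-Nme, 137, 132 and 123 with N-Omt and 124, 111 and 115 with N-Tri. Every mixture library lay above every CKI library, and the log2 differences were 1.82 ± 0.076, 1.46 ± 0.076, 1.53 ± 0.076 and 1.36 ± 0.077 (largest adjusted p = 2.29e-16). In batch 1 it differed from CKI by 1.09 (adjusted p = 9.27e-10) with N-OmtOspc and 1.34 (adjusted p = 4.13e-11) with N-MacOmtOspc at 48 h, and by 1.55 (adjusted p = 1.69e-05), 0.82 (adjusted p = 0.0113) and 1.10 (adjusted p = 0.00155) with N-MacOmtOspc, OmtOspc and MacOmtOspc at 24 h. RPL10 led with OmtOspc and MacOmtOspc at 48 h, at 0.96 ± 0.075 (adjusted p = 4.73e-10) and 1.00 ± 0.075 (adjusted p = 3.39e-10). RPS29 led with N-OmtOspc at 24 h, at 2.10 ± 0.33 (adjusted p = 4.21e-05). The few members below CKI were RPL39L with N-OmtOspc at 48 h and with N-Omt, RPLP1 with N-Omt, and RPS10, RPS15 and RPS28 in other mixtures, the last 2 named after their values were seen. RPL39L differed by -0.92 (adjusted p = 6.58e-09) and -0.59 (adjusted p = 8.4e-07) and RPLP1 by -0.37 (adjusted p = 1.5e-05).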

How the data were processed

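RNA was sequenced from 54 libraries of MDA-MB-231 cells. The deposited values are counts of reads per gene. Per the labels and the submitters' processing notes, the authors used RNA of an integrity number above 7, oligo(dT) selection and strand-specific paired-end libraries, trimmed with Trim Galore 0.3.7, aligned with STAR 2.5.3a to hg19 and counted with featureCounts of Subread 1.5.2. The gene annotation and the treatment of reads that fit several places are not given in the sources used here, and the strand setting of the counting is not either.

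Each of the 3 sets of 18 libraries of a time and batch was filtered with filterByExpr, scaled by TMM and fitted with a mean per group in edgeR 4.0.16 (R 4.3.3), leaving 15191 genes at 24 h, 15513 at 48 h in batch 1 and 15115 in batch 2. Groups were compared with the quasi-likelihood test, with Benjamini-Hochberg adjustment over all genes tested and calls at an adjusted p under 0.05. The standard error is the log2 fold change divided by the square root of the F statistic. Differences of effects between batches (12 libraries) and times (36 libraries) were tested in the same way. The spread was widest at 24 h, with a biological coefficient of variation of 0.175, against 0.0763 at 48 h in batch 1 and 0.0480 in batch 2. Replicates are called biological, but nothing says that they came from separate cultures, so that p-values measure only the spread between these samples. The total of 17673537 counts or more per library limits precision only for the members with the fewest counts.

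Lengths and GC content were taken from 1 transcript per gene of GENCODE 29 (all 77 members matched by symbol), and removed as trends through offsets with splines of 5 degrees of freedom. Same-numbered samples did not deviate together (no comparison of 15 had every correlation over 0.1), so no block was used. The script was tested on simulated data with the same spread for all genes and sets, narrower than that at 24 h. Alternatives were RLE scaling, library sizes alone, TMM without the members, other filters, DESeq2 1.42.0, other sets of libraries and leaving out each library. Members named were the stalk, 5S particle and paralog genes, RPS3, RPS6, RPS27A, RPL3, RPL10 and RPL41, the 5 with the highest and the 5 with the lowest mean log2 fold change, and those with the largest called changes in each comparison or, where at least 80% shared a direction, up to 3 called in the other. From other lists up to 4 genes were named, those with the smallest p with CKI at 48 h in batch 1. For 1 member that is in all counts and medians, single values are not reported here. The members and lists were chosen with earlier results of these data known.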

Additional observations from a re-analysis of the deposited data

Results flagged for a closer look

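Effects that differed between batches or times by a test of the difference itself (edgeR's quasi-likelihood test, adjusted over all genes tested) are given as values. The CKI effect at 48 h differed between batches for 6 members, all lower in batch 2, near the share of all genes (7.2%), with 3 called without CKI replicate 1 or 3 of batch 2 and 0 with all 54 libraries in 1 fit, and RPL36 had the largest difference of the 6, -0.33 on the log2 scale (batch 2 minus batch 1). The N-OmtOspc effect differed between 48 and 24 h for 61 members, all lower at 48 h, against 18.7% of all genes, and RPS29 had the largest difference, -2.04 on the log2 scale (48 h minus 24 h). The OmtOspc effect differed between times for 1 member, RPL18, by 0.58 on the log2 scale, against 3.23% of all genes higher, a call lost without any 1 of 9 libraries. The part of the libraries that stand apart at 24 h in the differences between times was not tested beyond leaving them out, which gave 64 lower and 1 higher members for N-OmtOspc and 3 higher for OmtOspc. Dixon's test for an outlying sample was not applied to groups of 3.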

How the results depend on the processing

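Of 865 counts and medians recomputed under an alternative, 739 stayed within 1.5 times the count or within 1 SD of the library medians, and 126 did not. This SD is that of the 3 treated libraries and ran from 0.0034 for N-Omt to 0.29 for N-OmtOspc at 24 h. Medians of groups with a wide spread therefore stayed within it more easily. No median of CKI changed its sign. Some others did, among them that of N-Nme, at -0.088 without its replicate 1. Those of OmtOspc and MacOmtOspc at 48 h turned to 0.049 and 0.017 with library sizes alone. Of the values of single genes, 6117 kept their side of the threshold, 194 were no longer called, 183 became called and 6 that were called as reported changed sign. The sign was compared only for values called as reported, so that changes of sign among the others are not counted. The cause of these changes was not tested.

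With RLE size factors 1 member was called for MacOmtOspc against untreated cells at 24 h in place of 0, and the medians were -0.17 for N-OmtOspc at 48 h (-0.18 as reported) and 0.12 for N-Omt (0.10). With library sizes alone 36 members were called for N-OmtOspc at 24 h, 3 for N-MacOmtOspc and 1 for MacOmtOspc at 24 h, 9 for MacOmtOspc against CKI at 24 h, and 33 and 4 for the differences between times of N-OmtOspc and OmtOspc. The medians against untreated cells were then 0.26 for N-OmtOspc at 24 h, -0.11 for N-OmtOspc, 0.049 for OmtOspc and 0.017 for MacOmtOspc at 48 h, -0.49 for CKI in batch 2, 0.14 for N-Omt and -0.038 for N-Tri. With genes of at least 1 count in any library the medians were -0.22 for N-OmtOspc at 48 h and 0.076 for N-Omt. With a mean of at least 1 CPM they were -0.13 and 0.12, and 2 members were called for N-MacOmtOspc and 1 for MacOmtOspc at 24 h, and 2 for the OmtOspc difference between times.

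With a length trend removed 5, 7 and 1 members were called for N-MacOmtOspc, OmtOspc and MacOmtOspc at 24 h, 28 for N-MacOmtOspc against CKI at 24 h, 60 for N-OmtOspc and 33 for OmtOspc at 48 h, and 1 for the N-MacOmtOspc difference between times. The medians were -0.41 for N-OmtOspc and -0.14 for OmtOspc at 48 h, 0.013 for N-Mac and 0.073 for N-Omt, and RPL26 was at -0.021 with N-OmtOspc at 48 h. Members have short transcripts, with a median of 709 bases against 2611 for genes tested. With a GC trend removed, an alternative chosen after seeing the data, 1 member was called for MacOmtOspc at 24 h and 1 for the N-MacOmtOspc difference between times. The medians at 48 h were -0.20 for N-OmtOspc, -0.12 for OmtOspc, -0.13 for MacOmtOspc, 0.029 for N-Mac, 0.055 for N-Omt and -0.045 for N-Tri. With it RPL18 was at -0.14 with N-OmtOspc at 48 h and 0.0089 with N-Omt, and RPLP2 was at 0.26, 0.040 and 0.082 with N-Mac, N-Nme and N-Tri, all of the opposite sign to that reported.

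With DESeq2 2, 8 and 1 members were called for N-MacOmtOspc, OmtOspc and MacOmtOspc at 24 h, 13 for MacOmtOspc against CKI at 24 h and 2 for the OmtOspc difference between times, and the medians were -0.17 for N-OmtOspc at 48 h and 0.12 for N-Omt. With the 6 libraries compared alone 62, 2, 1 and 9 members were called for CKI, N-MacOmtOspc, OmtOspc and MacOmtOspc at 24 h, 0 and 25 for OmtOspc and MacOmtOspc against CKI at 24 h, and 25, 36 and 29 for N-MacOmtOspc, OmtOspc and MacOmtOspc at 48 h, with medians of 0.11 for N-Omt and -0.10 for N-Tri. With all 54 libraries in 1 fit 65, 7, 29 and 2 members were called for CKI, N-MacOmtOspc, OmtOspc and MacOmtOspc at 24 h, 11 and 47 for OmtOspc and MacOmtOspc against CKI at 24 h, 9 for MacOmtOspc at 48 h, 36 for N-Mac, 34 for N-Tri, 0 for the CKI difference between batches and 2 for the OmtOspc difference between times. The medians were 0.10 for N-Omt and -0.10 for N-Tri.

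Without the 3 libraries that stand apart 5 and 1 members were called for N-MacOmtOspc and MacOmtOspc at 24 h, and 3 and 1 for the differences between times of OmtOspc and MacOmtOspc. Leaving out each library in turn gave 15 to 39 members called for CKI, 1 to 3 for N-MacOmtOspc and 0 to 25 for OmtOspc at 24 h. Against CKI at 24 h it gave 26 to 61 for N-MacOmtOspc, 0 to 3 for OmtOspc and 3 to 5 for MacOmtOspc, and at 48 h 33 to 59 for N-MacOmtOspc against untreated cells. For the differences it gave 3 to 7 for CKI between batches, and 0 to 1 for N-MacOmtOspc and 0 to 6 for OmtOspc between times. The medians ran from -0.24 to -0.14 for N-OmtOspc, from -0.12 to -0.033 for OmtOspc and from -0.13 to -0.034 for MacOmtOspc at 48 h, and from 0.067 to 0.10 for N-Omt.

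Samples share only a replicate number, and the correlations of their deviations were between -0.27 and 0.27. With the replicate number as a block 43 members were lower with CKI at 24 h and, as without it, 67 and 74 at 48 h, and 2 members were called for N-MacOmtOspc and 1 for MacOmtOspc at 24 h, 8 for MacOmtOspc against CKI at 24 h and 2 for the OmtOspc difference between times. Depth limits only the members with the fewest counts, RPL36A, RPS10 and RPL17.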
